A study of Rattus norvegicus with 12 samples.

Results

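Lysosomal enzymes and membrane proteins were followed as a set of 46 genes among the 24660 of a count table from NRK-52E, an established rat kidney cell line labelled as tubular epithelial cells of wild-type genotype. The genes were picked by name for their place in the lysosome, not by a measured value, though earlier results of these data were known. They comprised 9 cathepsins, 2 other enzymes that act on proteins (the peptidase Tpp1 and the thioesterase Ppt1), 10 glycosidases, 4 sulfatases, 4 lipid hydrolases, 4 activators and lipid transfer proteins, 7 membrane proteins, 4 proton pump parts and 2 transcription factors. The 12 libraries of total RNA fall into 4 groups of 3. The 3D-EV and 2D-EV cells received TGF-beta1, a cytokine that drives fibrosis, for 24 h, followed by 48 h with extracellular vesicles (EVs, membrane particles shed by cells) at 500000000 particles/ml. The labels call the vesicles of a conventional method 2D-EVs and those of a more productive method 3D-EVs. The TGF-beta1 cells received the cytokine alone, also labelled as 24 h. Its dose is labelled as 10 µg/ml in the TGF-beta1, 2D-EV and 3D-EV groups alike, although doses in ng/ml are usual, so the unit is doubtful. The labels name no agent for the control cells, which share the line and the genotype with the other groups. The sources used here do not give the cells that made the EVs, whether the cytokine stayed in the medium, or the harvest time of the groups without EVs. A difference of an EV group from TGF-beta1 cells therefore cannot be told apart from one of time.

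Lysosomes digest proteins, glycans and lipids that reach them by endocytosis or autophagy, with enzymes that work in an acidic space. A proton pump, the V-ATPase, acidifies that space with a cytosolic sector (subunits named V1) that splits ATP and a membrane sector (subunits named V0) that carries protons, while heavily glycosylated proteins such as Lamp1 and Lamp2 line the membrane. TFEB and its relative TFE3 are transcription factors that raise many lysosomal genes through a promoter element known as CLEAR when the kinase complex mTORC1 at the lysosomal surface is less active. In the kidney, cells of the proximal tubule take up filtered proteins and degrade them in lysosomes, and inherited defects of several of these enzymes, such as the loss of Gla in Fabry disease, affect the organ.

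Library totals were 32888125 to 39754319 counts, and values are given as CPM, counts relative to the library total after TMM scaling, which aligns the bulk of genes between libraries. Of the 46 genes, 42 passed the filter on low counts. Ctsc, the dipeptidyl peptidase cathepsin C, was listed at 0 in every library, and Ctsh, Ctsz and the membrane protein gene Cln3 held at most 5, 7 and 10 counts in any library and were not tested. A listing near 0 in this table need not mean absence of the RNA, since Gnas and Krt18, which epithelial cells use widely, were listed at 1 to 9 and at 0 to 5 counts. Among tubular markers, Krt8, an epithelial keratin, held 34718 to 46419 counts, whereas Epcam and Pax2 were listed at 0 throughout and Cdh1 at 2 to 30 counts. Lrp2 and Cubn, the protein uptake receptors of the proximal tubule, held 17 to 59 and 17 to 43 counts. These receptors were thus listed low, and the same limit on what a low listing means holds for them. The leukocyte genes Ptprc, C1qa, C1qb, Tyrobp and Itgam were at 0 in every library, though Cd14 and Fcer1g were not.

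The promoter windows of these genes, from 250 bases before to 50 after the start of transcription in RefSeq on build GRCr8, were searched for the E-box CACGTG and for its longer form TCACGTGA, the core of the CLEAR element. Both read the same on either strand, and every longer match contains the E-box. A window was at hand for 38 of the 46 genes. The E-box occurred in 9 of these 38 windows (23.7%), against 6.42% of all 33469 windows of the RefSeq promoter table, which cover 27457 genes, and 9.06% of the 10999 windows of 9715 tested genes. The shares over all genes thus count a gene once per window and some genes several times, while each of the 38 genes had 1 window. The longer form occurred in 5 windows (13.2%), those of Atp6v0d1, Cln3, Ctsd, Lamp1 and Mcoln1, against 0.777% of all windows and 1.62% of those of tested genes. Of the 11 genes with a window that rose with TGF-beta1, described further on, 2 held the E-box (18.2%, Atp6v0d1 and Sgsh), and of the 23 with a window that did not pass the test, 6 did (26.1%). The windows of 5 genes are shown for contrast, with the longer form in capitals: that of Neu1, the gene with the largest change, which holds neither form, and those of Atp6v0d1, Lamp1, Ctsd and Mcoln1, which hold it. Its first base lies 53 bases before the start in Atp6v0d1, 66 and 39 bases before it in Lamp1, which has 2 copies, 11 bases before it in Ctsd and at base 4 of the transcript in Mcoln1. Lamp1 holds the E-box 5 times in its window, Ctsd and Mcoln1 2 times each and Atp6v0d1 1 time. A match describes the letters of the window and not binding, and the lack of a match says only that these letters are not in it.
Neu1, chr20:3906334-3906633, minus strand: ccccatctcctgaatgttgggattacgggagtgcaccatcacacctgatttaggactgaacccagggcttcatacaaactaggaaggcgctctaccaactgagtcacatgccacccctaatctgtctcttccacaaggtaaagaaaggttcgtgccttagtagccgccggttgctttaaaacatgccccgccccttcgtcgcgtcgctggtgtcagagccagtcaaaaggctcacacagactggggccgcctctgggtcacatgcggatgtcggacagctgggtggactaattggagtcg
Atp6v0d1, chr19:50357199-50357498, minus strand: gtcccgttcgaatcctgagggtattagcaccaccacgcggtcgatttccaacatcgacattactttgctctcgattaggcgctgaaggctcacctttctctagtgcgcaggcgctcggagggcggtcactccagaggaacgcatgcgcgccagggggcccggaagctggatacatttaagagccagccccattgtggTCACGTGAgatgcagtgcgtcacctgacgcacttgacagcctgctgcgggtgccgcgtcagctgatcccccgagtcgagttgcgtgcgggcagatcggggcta
Lamp1, chr16:83075014-83075313, minus strand: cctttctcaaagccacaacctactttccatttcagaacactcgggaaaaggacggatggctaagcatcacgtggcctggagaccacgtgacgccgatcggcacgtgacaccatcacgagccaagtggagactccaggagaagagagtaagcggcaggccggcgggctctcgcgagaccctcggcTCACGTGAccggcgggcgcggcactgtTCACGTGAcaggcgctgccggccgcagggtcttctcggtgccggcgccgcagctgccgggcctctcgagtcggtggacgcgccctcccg
Ctsd, chr1:206968772-206969071, minus strand: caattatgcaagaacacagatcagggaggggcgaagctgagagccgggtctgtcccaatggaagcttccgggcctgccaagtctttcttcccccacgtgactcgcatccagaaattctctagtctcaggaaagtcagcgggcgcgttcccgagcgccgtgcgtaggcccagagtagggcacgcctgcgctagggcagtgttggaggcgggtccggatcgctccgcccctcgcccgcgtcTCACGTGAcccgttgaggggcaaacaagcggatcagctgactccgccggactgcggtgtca
Mcoln1, chr12:6358008-6358307, plus strand: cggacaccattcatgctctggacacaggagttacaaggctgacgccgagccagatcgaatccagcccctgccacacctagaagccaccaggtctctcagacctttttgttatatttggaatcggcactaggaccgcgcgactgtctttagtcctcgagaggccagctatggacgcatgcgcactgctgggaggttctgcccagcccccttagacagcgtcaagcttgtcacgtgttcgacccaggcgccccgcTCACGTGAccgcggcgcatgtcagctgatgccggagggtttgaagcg

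Setting TGF-beta1 cells against control cells asks which lysosomal genes the cytokine changed. Of the 42 genes tested, 13 rose, 0 fell and 29 did not pass (edgeR, adjusted p below 0.05 over all 14184 genes tested). The 13 that rose made up 31.0% of the genes tested, where 11.8% of all genes tested rose, 10.2% fell and 22.0% changed either way. The median log2 fold change of the 42 genes was 0.07, beside -0.005 over all genes, and 32 of the 42 lay above 0. Apart from Neu1 the rises were small, between 1.08-fold and 1.25-fold. None of the 42 was lower at an unadjusted p below 0.05, and DESeq2 called 14 genes and limma-voom 13, all higher. The numbers over all genes by these tools are not given for this comparison, so their counts describe direction only. Separate cultures are not named in the labels, so the p-values measure a spread between libraries that may be technical only. As in any bulk RNA sample, more cells of a kind and more RNA per cell cannot be told apart.

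**Figure D1:**
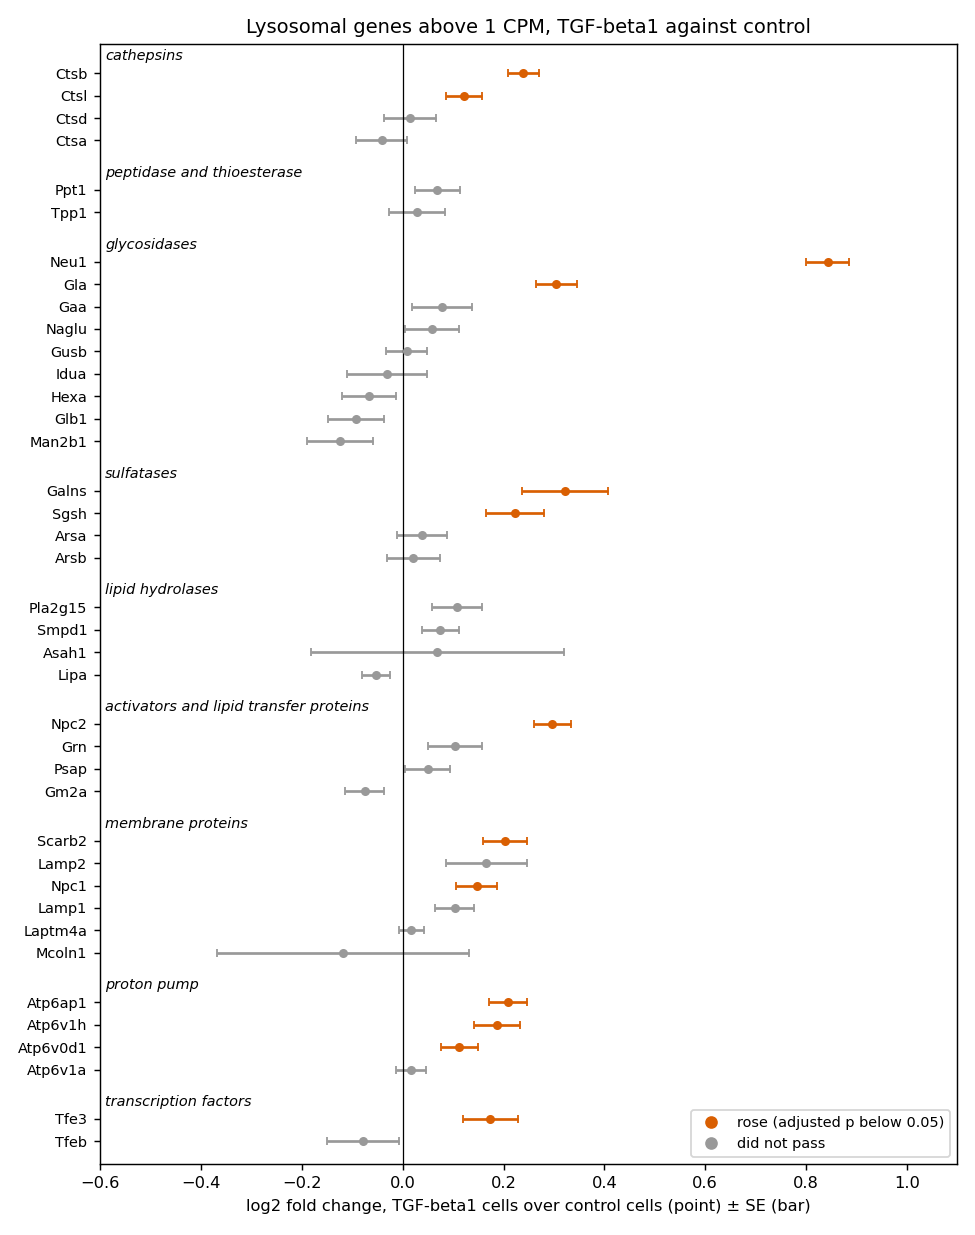
Log2 fold change of TGF-beta1 cells over control cells (x axis) for the 39 genes above 1 CPM in control cells, by role; points are edgeR estimates from 3 libraries a group and bars are ± 1 SE. Neu1 lies at 0.84, apart from the other 12 that rose (orange), which lie between 0.11 and 0.32, and no gene passed the test on the lower side.

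Among the glycosidases, which trim sugars from glycoproteins and glycolipids, Neu1, the sialidase that removes terminal sialic acids, had 281, 299 and 285 CPM in TGF-beta1 cells, against 158, 152 and 171.5 CPM in control cells. The lowest TGF-beta1 library stood far above the highest control library, and the rise was 1.79-fold (log2 fold change 0.84, SE 0.04, adjusted p = 5.6e-09). Gla, the galactosidase lost in Fabry disease, had 113.5, 123 and 121 CPM in TGF-beta1 cells, against 98.4, 98.9 and 92.0 CPM in control cells. These groups did not overlap either, and Gla rose 1.24-fold (log2 fold change 0.30, SE 0.04, adjusted p = 7.1e-05). The other 8 glycosidases did not pass. Gaa, which breaks down glycogen, and Naglu and Idua, which degrade heparan sulfate, had log2 fold changes of 0.08, 0.06 and -0.03. Those of Gusb (glucuronidase), Hexa (a hexosaminidase subunit), Glb1 (beta-galactosidase) and Man2b1 (a mannosidase) were 0.01, -0.07, -0.09 and -0.12, and Manba lay below 1 CPM in every library.

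Slc44a4, a choline transporter gene that lies 2 places from Neu1 on the same strand in RefSeq gene order, also rose, to 3.31 ± 0.109 CPM in TGF-beta1 cells, against 1.34 ± 0.557 CPM in control cells (SD, n = 3; log2 fold change 1.29, adjusted p = 0.000989 by edgeR). Its level was a small part of that of Neu1, and whether reads of the pair were shared was not tested.

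Of the cathepsins, proteases of the lysosome, 2 of the 6 tested rose. Ctsb, a cysteine protease, had 1475, 1554 and 1526 CPM in TGF-beta1 cells, against 1289, 1260 and 1310 CPM in control cells. The groups were apart and Ctsb rose 1.18-fold (log2 fold change 0.24, SE 0.03, adjusted p = 4.8e-05). Ctsl, another cysteine protease, had 1879, 1885 and 1796 CPM in TGF-beta1 cells, against 1725, 1663 and 1723 CPM in control cells, also without overlap. It rose 1.09-fold (log2 fold change 0.12, SE 0.04, adjusted p = 0.0232). This call was lost in 3 of the 6 analyses that left out a library (without control replicate 2, TGF-beta1 replicate 1 or TGF-beta1 replicate 2, adjusted p = 0.0805, 0.072 and 0.089). Ctsd, the main aspartic protease, had 741, 779 and 793 CPM in TGF-beta1 cells, against 772.5, 724 and 793.5 CPM in control cells. Its groups overlapped fully, and the interval of its log2 fold change ran from -0.10 to 0.13. Ctsa, the carboxypeptidase that protects the Neu1 protein from degradation, was at 537 ± 23.4 CPM in TGF-beta1 cells and 553 ± 33.9 CPM in control cells (SD, n = 3; log2 fold change -0.04). Ctsk and Ctss, proteases best known from osteoclasts and antigen-presenting cells, did not exceed 1.04 CPM in any library. Tpp1, a tripeptidyl peptidase, and Ppt1, which removes fatty acids from proteins, did not pass, with log2 fold changes of 0.03 and 0.07.

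Sulfatases remove sulfate groups from glycosaminoglycans and lipids. Sgsh, which acts on heparan sulfate, had 63.0, 59.0 and 65.2 CPM in TGF-beta1 cells, against 49.9, 52.5 and 58.2 CPM in control cells. The lowest TGF-beta1 library was just above the highest control library, and Sgsh rose 1.17-fold (log2 fold change 0.22, SE 0.06, adjusted p = 0.0117). Galns, which acts on keratan sulfate and chondroitin sulfate, rose 1.25-fold, to 28.2 ± 2.99 CPM in TGF-beta1 cells, against 22.6 ± 0.865 CPM in control cells (SD, n = 3; adjusted p = 0.0132). Arsa and Arsb, which desulfate sulfatide and dermatan sulfate, did not pass, with log2 fold changes of 0.04 and 0.02. Sgsh no longer passed without control replicate 1 (adjusted p = 0.0628) and without TGF-beta1 replicate 3 (0.0591), and the Galns call without control replicate 2 (0.0537), TGF-beta1 replicate 2 (0.0575) or TGF-beta1 replicate 3 (0.0585).

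Among the genes of lipid handling, the cholesterol carriers rose and the lipid hydrolases did not pass. Npc2, the soluble protein that hands cholesterol to Npc1, had 844, 837 and 805 CPM in TGF-beta1 cells, against 692, 656 and 676 CPM in control cells. The groups were well apart, and Npc2 rose 1.23-fold (log2 fold change 0.30, SE 0.04, adjusted p = 4.1e-05). Npc1, the membrane protein that exports the cholesterol, rose 1.11-fold, to 151 ± 9.94 CPM in TGF-beta1 cells, against 136 ± 3.38 CPM in control cells (SD, n = 3; adjusted p = 0.0186). That call was lost without control replicate 1 (0.0713), control replicate 2 (0.0579) or TGF-beta1 replicate 3 (0.0983). Lipa, the acid lipase for cholesteryl esters, Smpd1, the acid sphingomyelinase, and Pla2g15, a phospholipase, did not pass, with log2 fold changes of -0.05, 0.07 and 0.11. Their groups did not overlap, with Lipa lower and Smpd1 and Pla2g15 higher in TGF-beta1 cells. How many of all genes were separated in this way was not counted. Psap, the precursor of the saposins, Gm2a, the activator for ganglioside breakdown, and Grn, progranulin, had log2 fold changes of 0.05, -0.08 and 0.10 and did not pass.

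Of the membrane proteins tested, Scarb2 and Npc1 rose. Scarb2, the receptor that carries glucocerebrosidase to the lysosome, had 184, 199 and 197 CPM in TGF-beta1 cells, against 167, 165 and 171.5 CPM in control cells. The groups did not overlap, and the rise was 1.15-fold (log2 fold change 0.20, SE 0.04, adjusted p = 0.00341). Lamp1 had 1490, 1557 and 1563 CPM in TGF-beta1 cells, against 1438, 1364 and 1492 CPM in control cells. Its groups met at their edges, and the difference did not pass in edgeR (log2 fold change 0.10, SE 0.04, adjusted p = 0.0705) while it did in DESeq2 (adjusted p = 0.0344). Lamp2 had 680.5, 687 and 677 CPM in TGF-beta1 cells, against 537, 623 and 663 CPM in control cells. The control libraries were spread over a wide range below the tight TGF-beta1 libraries, and the difference did not pass (log2 fold change 0.17, SE 0.08, adjusted p = 0.167). Laptm4a, a transmembrane protein of late endosomes and lysosomes, was nearly level at a log2 fold change of 0.02. Mcoln1, a calcium channel of the lysosomal membrane, had 40.4, 21.5 and 28.4 CPM in TGF-beta1 cells, against 25.6, 38.5 and 33.95 CPM in control cells. Its libraries were scattered in both groups and are taken up with those of its neighbour gene further on.

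**Figure D2:**
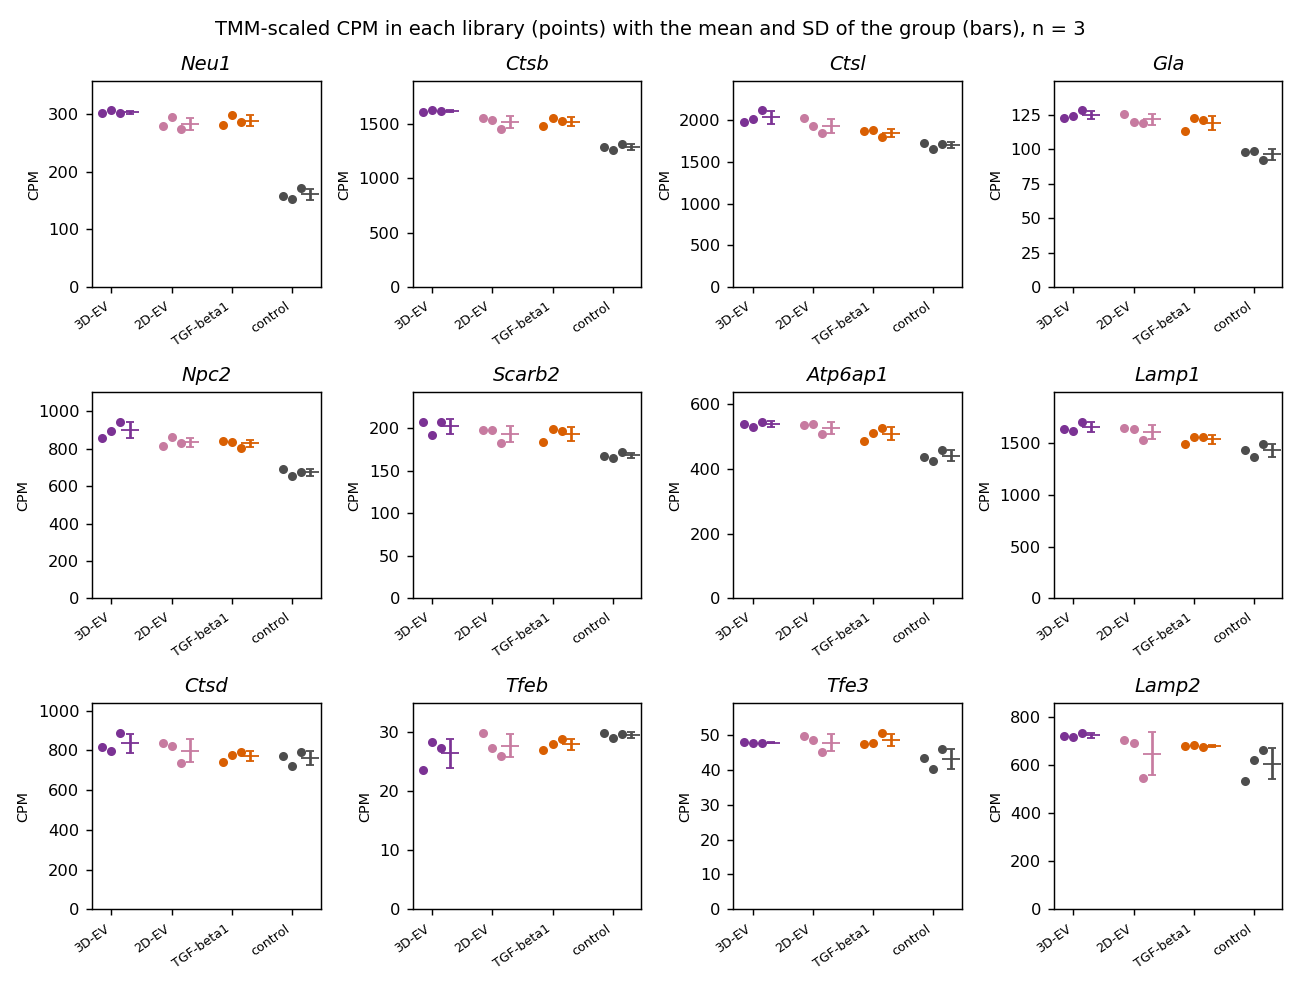
TMM-scaled CPM (y axes, from 0) of 12 lysosomal genes in each library (points, 3 per group), with the mean and SD of the group beside them, from left to right in 3D-EV, 2D-EV, TGF-beta1 and control cells. Neu1, Ctsb, Gla and Npc2 stand lower in the 3 control libraries than in the 9 others. Ctsd overlaps between 2D-EV, TGF-beta1 and control cells, while its 3D-EV libraries lie just above those of TGF-beta1 and control cells.

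Of the 4 proton pump genes, 3 rose. Atp6ap1, an accessory subunit, had 487, 512 and 528 CPM in TGF-beta1 cells, against 437, 425 and 459 CPM in control cells. Atp6v1h, a regulatory subunit of the cytosolic sector, had 164, 157 and 161 CPM in TGF-beta1 cells, against 134, 138 and 152 CPM in control cells. Neither gene overlapped between the groups, and the rises were 1.16-fold for Atp6ap1 (adjusted p = 0.000871) and 1.14-fold for Atp6v1h (adjusted p = 0.00804). Atp6v0d1, a subunit of the membrane sector, rose 1.08-fold (204 ± 8.20 CPM in TGF-beta1 cells and 188 ± 5.03 CPM in control cells, SD, n = 3; adjusted p = 0.0386). The Atp6v0d1 call was lost in 4 of the 6 analyses that left out a library (control replicates 2 and 3, TGF-beta1 replicates 2 and 3; adjusted p = 0.083, 0.149, 0.0967 and 0.162), and also without the filter on low counts (0.0555) and with only the TGF-beta1 and control libraries fitted (0.061). Atp6v1a, the catalytic subunit, was nearly level (log2 fold change 0.02, interval -0.05 to 0.08). Of 13 further pump genes tested, 7 rose and 0 fell. These were Atp6v0c, the proton-carrying ring subunit (449 ± 14.5 CPM in TGF-beta1 cells and 377 ± 4.20 CPM in control cells, SD, n = 3; 1.19-fold), Atp6v1b2, the partner of the catalytic subunit (163 ± 3.66 and 135 ± 1.06 CPM in the same order; 1.20-fold), Atp6v0a1, Atp6v1e1, Atp6v1g1, Atp6v1c1 and the accessory Atp6ap2. Over all 17 pump genes tested, 10 rose (8 to 10 when a library was left out), and the 5 genes that did not pass besides Atp6v1a and Atp6v1d lay below 20 CPM in control cells.

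**Figure D3:**
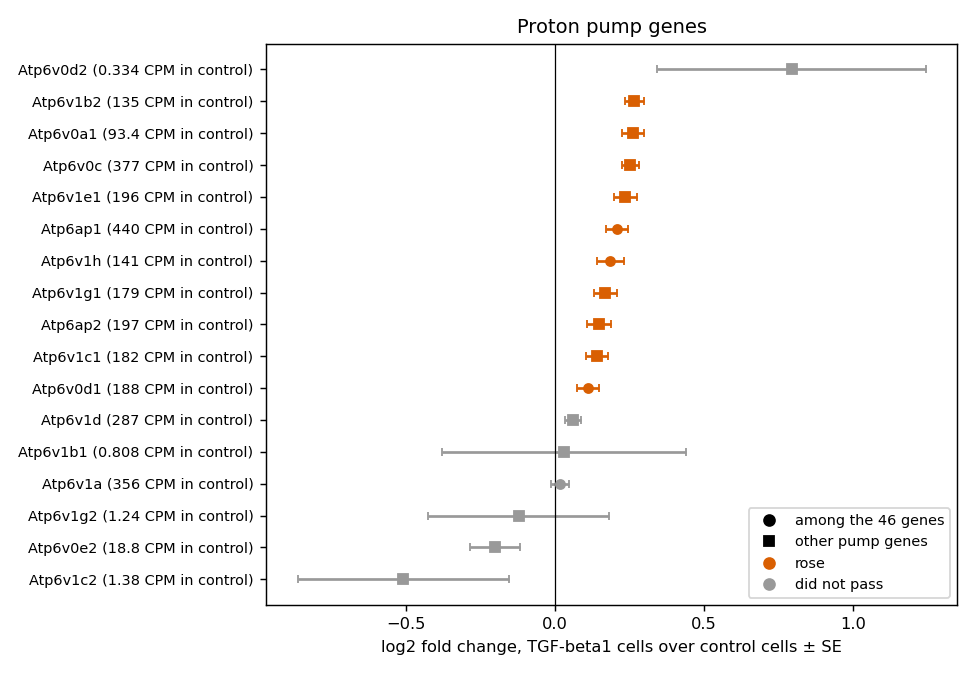
Log2 fold change of TGF-beta1 cells over control cells (x axis, ± 1 SE) for the 17 proton pump genes tested, with the mean CPM of control cells beside each name; circles are among the 46 genes and squares are other pump genes. The 10 genes that rose (orange) lie between 0.11 and 0.27, and the wide bars belong to genes at or below 1.4 CPM.

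Of the transcription factors, Tfe3 passed the test and Tfeb did not. Tfe3 had 47.4, 47.8 and 50.6 CPM in TGF-beta1 cells, against 43.2, 40.1 and 45.9 CPM in control cells. The TGF-beta1 libraries were all higher, and Tfe3 rose 1.13-fold (log2 fold change 0.17, SE 0.06, adjusted p = 0.0345), but the call was lost without control replicate 1 (0.0736), control replicate 2 (0.139), TGF-beta1 replicate 2 (0.0629) or TGF-beta1 replicate 3 (0.132). Tfeb had 26.9, 27.95 and 28.7 CPM in TGF-beta1 cells, against 29.8, 28.9 and 29.6 CPM in control cells. The TGF-beta1 libraries were all slightly lower, and the difference did not pass (log2 fold change -0.08, SE 0.07, adjusted p = 0.494). RNA levels do not report where in the cell these factors were, which is how mTORC1 is known to control them.

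Other genes of the pathway were counted against the same 11.8% of all genes that rose and 10.2% that fell with TGF-beta1, and the lists were not tested against each other. Of 21 other acid hydrolases tested, 9 rose and 1 fell, with a median log2 fold change of 0.08. Ctsf, a cysteine cathepsin, rose 2.69-fold, to 10.9 ± 0.880 CPM in TGF-beta1 cells, against 4.04 ± 0.0627 CPM in control cells (SD, n = 3; adjusted p = 1.1e-07 by edgeR), and Naaa, an acid amidase, rose 1.63-fold (26.3 ± 0.978 CPM in TGF-beta1 cells and 16.1 ± 1.63 CPM in control cells, SD, n = 3). Ctso, another cathepsin, fell to 12.7 ± 0.384 CPM in TGF-beta1 cells, against 16.0 ± 0.382 CPM in control cells. Of 15 genes of enzyme sorting and maturation, 2 rose, among them Sumf1, which activates sulfatases, and 1 fell (Cln6, an endoplasmic reticulum protein that helps enzymes leave for the lysosome), with a median of 0.06. The fold was 1.15 for Sumf1 and 0.807 for Cln6. Of 22 other membrane proteins and transporters, 4 rose and 0 fell (median 0.12), with Ostm1, a partner of the chloride transporter Clcn7, at 1.17-fold and the tetraspanin Cd63 at 1.12-fold.

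Among 18 genes of the TFEB family and its mTORC1 regulators, 3 rose and 0 fell (median 0.04): Lamtor1, which anchors mTORC1 regulators to the lysosome (1.14-fold), and the Rag GTPases Rragc and Rraga (1.09-fold each). Of 31 autophagy genes, 7 rose and 0 fell (median 0.07). Wipi1, which acts as the autophagosome forms, rose 1.25-fold (72.9 ± 1.67 CPM in TGF-beta1 cells and 58.5 ± 2.27 CPM in control cells, SD, n = 3), and Map1lc3b, the membrane marker of autophagosomes, 1.15-fold (145 ± 5.39 CPM and 126 ± 2.39 CPM in the same order). The others that rose were Atg5, Sqstm1, Becn1, Gabarap and Gabarapl2. Without control replicate 2 the numbers of genes that rose were 4 of the acid hydrolases, 1 of the TFEB list and 4 of the autophagy list, and the autophagy list also had 4 without control replicate 3 and the TFEB list 1 without TGF-beta1 replicate 2.

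The directions rest on a scaling that centres the bulk of genes. With library totals in place of TMM, the median of all genes moved by -0.05 on the log2 scale and the share of calls that were higher was 33.8%, against 53.6% with TMM. On that scale 9 of the 42 lysosomal genes rose and 2 fell, namely Gm2a (log2 fold change -0.13, adjusted p = 0.0259) and Lipa (-0.10, adjusted p = 0.0128). Ctsl, Tfe3, Npc1 and Atp6v0d1 no longer passed there (adjusted p = 0.172, 0.129, 0.122 and 0.264). Of the pump genes 7 rose and 1 fell, of the other acid hydrolases 4 rose and 2 fell, of the TFEB list 1 rose and 1 fell, and of the autophagy list 3 rose and 1 fell. The 33.8% is a share of calls. What share of all genes tested rose or fell on that scale is not given, so these numbers describe direction only. Neu1, Npc2, Ctsb, Gla, Atp6ap1, Scarb2 and Atp6v1h rose in all 15 settings tried. The number of lysosomal genes that rose was 8 without control replicate 2 and 8 without TGF-beta1 replicate 3. Over all genes, 1337 to 1423 rose when a library was left out.

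Markers of cell types moved with the groups in part. The summed level of 12 macrophage and other immune markers was 387 to 396 CPM in 3D-EV cells, 368 to 381 CPM in 2D-EV cells, 390 to 400.2 CPM in TGF-beta1 cells and 336 to 351 CPM in control cells, almost all of it from Cd14, a lipopolysaccharide co-receptor (248 ± 3.78 CPM in TGF-beta1 cells and 185 ± 7.64 CPM in control cells, SD, n = 3; adjusted p = 6.0e-07 by edgeR), and from Fcer1g. The defining markers Ptprc, C1qa, C1qb, Tyrobp and Itgam were at 0. The 8 fibroblast and pericyte markers summed to 724 to 763 CPM in 3D-EV cells, 702 to 714 CPM in 2D-EV cells, 699 to 718 CPM in TGF-beta1 cells and 744 to 791 CPM in control cells, so the 3D-EV sums all lay above the TGF-beta1 sums. Most of that sum came from Mfap5 and Col14a1. Cspg4 was lower, at 3.23, 2.875 and 2.89 CPM in 3D-EV cells, against 3.82, 3.79 and 3.52 CPM in TGF-beta1 cells. Of the 4 such markers tested with TGF-beta1 over control cells, 0 rose and 1 fell, and 2 lay above 0. The 1 that fell was Col14a1, at 131, 121 and 137 CPM in TGF-beta1 cells, against 206, 193 and 200 CPM in control cells. The 13 tubular markers summed to 1462 to 1522 CPM in 3D-EV cells, 1476 to 1514 CPM in 2D-EV cells, 1497 to 1561 CPM in TGF-beta1 cells and 1190 to 1220 CPM in control cells, almost all of it from Krt8 and Ggt1. Of the 9 tubular markers tested with TGF-beta1 over control cells, 2 rose and 1 fell. Aqp1 was lower, at 15.5, 15.5 and 13.9 CPM in TGF-beta1 cells, against 18.05, 17.8 and 23.5 CPM in control cells. The 5 osteoclast markers summed to at most 1.08 CPM in any library. The part of these markers in the lysosomal rises, with TGF-beta1 or with EVs, was not tested.

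The comparisons of EV-treated cells with TGF-beta1 cells asked whether the vesicles moved these genes, and they share the 3 TGF-beta1 libraries. With 3D-EVs, 0 of the 42 lysosomal genes passed in edgeR, as did 0% of all genes, and DESeq2 called 0 of the 42 and 13 of all genes and limma-voom 0 of both. At an unadjusted p below 0.05, 14 of the 42 genes (33.3%) differed, all of them higher in 3D-EV cells, beside 7.24% of all genes. The median log2 fold change was 0.08, beside -0.0002 over all genes, and 37 of 42 genes lay above 0. The median was 0.05 to 0.09 when any of the libraries was left out. None of these single-gene differences held up after adjustment, the smallest adjusted p being 0.503. The summed fibroblast and pericyte markers given above were higher in the 3D-EV libraries too, with 3 of the 4 tested above 0 and Cspg4 below.

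With 2D-EVs, 0 of the 42 genes passed in edgeR, where 0.0282% of all genes did (4 genes, all lower), and DESeq2 called 0 of the 42 and 56 of all genes and limma-voom 0 and 9. At an unadjusted p below 0.05 there were 2 genes (4.76%, Atp6v1a and Laptm4a, both higher), beside 7.10% of all genes. The median log2 fold change was 0.02 and 30 of 42 genes lay above 0. The median without a library ranged from -0.005 to 0.06, so its sign depended on the libraries included.

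The genes with the lowest p with 3D-EVs covered several roles, and none passed. Ctsl had 1977, 2014 and 2120 CPM in 3D-EV cells and 2024, 1937 and 1854 CPM in 2D-EV cells, against 1879, 1885 and 1796 CPM in TGF-beta1 cells. The 3D-EV libraries were all above the TGF-beta1 libraries and the 2D-EV libraries spanned the gap. The log2 fold change over TGF-beta1 cells was 0.14 with 3D-EVs (interval 0.06 to 0.21, adjusted p = 0.503) and 0.06 with 2D-EVs (interval -0.01 to 0.14, adjusted p = 0.777). Lipa had 145, 149.5 and 148 CPM in 3D-EV cells and 141, 141 and 143 CPM in 2D-EV cells, against 138, 137 and 138.5 CPM in TGF-beta1 cells. Both EV groups lay above the TGF-beta1 libraries (log2 fold change 0.10 with 3D-EVs, adjusted p = 0.511). Npc2 had 857, 898 and 946 CPM in 3D-EV cells and 815, 861 and 830.4 CPM in 2D-EV cells, against 844, 837 and 805 CPM in TGF-beta1 cells. Here the 3D-EV libraries were higher and the 2D-EV libraries overlapped with TGF-beta1 cells (log2 fold change 0.12 with 3D-EVs, adjusted p = 0.583).

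Neu1, the gene with the largest rise over control cells, had 301, 306 and 302 CPM in 3D-EV cells and 279, 294 and 274 CPM in 2D-EV cells, beside the 281, 299 and 285 CPM of TGF-beta1 cells. Both EV groups overlapped with or lay just above the TGF-beta1 libraries, with intervals of the log2 fold change over TGF-beta1 cells of -0.02 to 0.16 with 3D-EVs and -0.12 to 0.06 with 2D-EVs. Ctsb had 1603, 1620 and 1619 CPM in 3D-EV cells and 1549, 1536 and 1447 CPM in 2D-EV cells. Lamp1 had 1639, 1614 and 1709 CPM in 3D-EV cells and 1650, 1641 and 1529 CPM in 2D-EV cells. Over TGF-beta1 cells the log2 fold change was 0.09 for Ctsb and 0.11 for Lamp1 with 3D-EVs, and -0.01 and 0.06 with 2D-EVs, none of which passed. Lamp2 had 723, 717 and 736 CPM in 3D-EV cells and 707, 691 and 547 CPM in 2D-EV cells. Ctsd had 817, 798 and 888 CPM in 3D-EV cells and 839, 822 and 734 CPM in 2D-EV cells. In both genes 2D-EV replicate 3 was the lowest of the EV-treated libraries. Tfeb had 23.6, 28.3 and 27.2 CPM in 3D-EV cells and 29.9, 27.2 and 26.0 CPM in 2D-EV cells. Tfe3 had 47.95, 47.8 and 47.6 CPM in 3D-EV cells and 49.7, 48.5 and 45.0 CPM in 2D-EV cells. Both factors overlapped with TGF-beta1 cells, with log2 fold changes between -0.08 and -0.01.

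**Figure D4:**
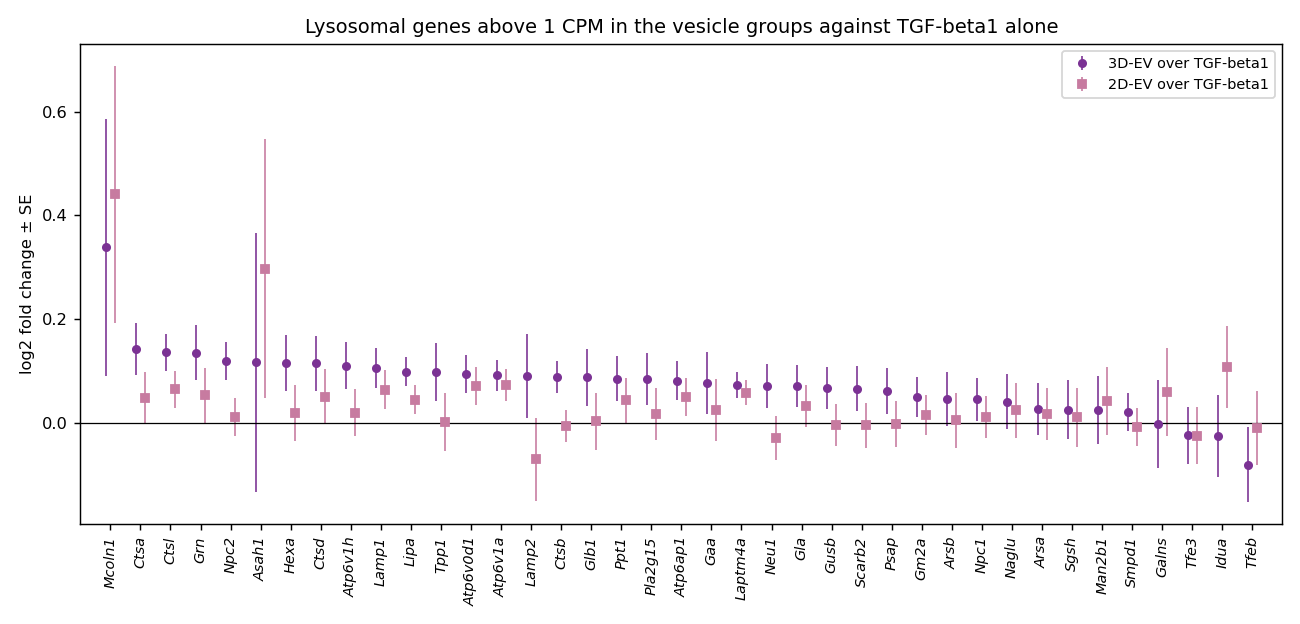
Log2 fold change (y axis, ± 1 SE) over TGF-beta1 cells of the 39 genes above 1 CPM in 3D-EV cells (circles) and 2D-EV cells (squares), ordered by the value in 3D-EV cells; both share the TGF-beta1 libraries. No gene passed the test, most points lie within 0.15 of 0, and the wide bars are Mcoln1 and Asah1.

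Set against each other directly, 3D-EV and 2D-EV cells differed in 0 of the 42 lysosomal genes by edgeR, where 0.00705% of all genes passed (1 gene, higher). DESeq2 called 0 of the 42 and 21 of all genes, and limma-voom 0 and 2. Of the 42 genes, 3 (7.14%) had an unadjusted p below 0.05, all higher in 3D-EV cells, beside 6.90% of all genes. These were Ctsb (log2 fold change 0.10, interval 0.03 to 0.16), Npc2 (0.11, interval 0.03 to 0.19) and Neu1 (0.10, interval 0.01 to 0.19), with adjusted p = 0.618, 0.618 and 0.686 by edgeR. The intervals bound a difference between the preparations in Ctsb, Npc2 and Neu1 at a log2 fold change of 0.19, and they do not show that the preparations act alike. Some other genes had wider intervals, such as Lamp2 (-0.01 to 0.33) and Asah1 (-0.71 to 0.35). Others had narrower ones, such as Laptm4a (-0.04 to 0.07) and Lipa (-0.01 to 0.11).

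The EV groups were also set against control cells, the same 3 libraries as in the TGF-beta1 comparison, and the shares of lysosomal genes that rose were again above those of all genes. In 3D-EV cells 19 of 42 rose and 0 fell (45.2%, where 12.2% of all genes rose and 10.8% fell), with a median log2 fold change of 0.15. In 2D-EV cells 14 rose and 0 fell (33.3%, where 10.5% of all genes rose and 8.13% fell), with a median of 0.10. Leaving out a library gave 14 to 20 genes with 3D-EVs and 11 to 18 with 2D-EVs, lowest without 3D-EV replicate 3 and without control replicate 1. Over all genes, 1333 to 1450 rose with 3D-EVs and 1176 to 1311 with 2D-EVs when a library was left out. At an unadjusted p below 0.05, 1 gene was lower in 3D-EV cells, Tfeb (log2 fold change -0.16, adjusted p = 0.130), and none in 2D-EV cells. With library totals, 14 rose and 1 fell with 3D-EVs (Tfeb, adjusted p = 0.0364), 12 rose and 0 fell with 2D-EVs, and the share of all calls that were higher was 31.0% and 39.0%, against 53.1% and 56.4% with TMM. What share of all genes tested rose or fell with library totals is not given, so these numbers describe direction only.

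The 12 genes that rose in all 3 comparisons with control cells were Neu1, Npc2, Gla, Ctsb, Ctsl, Atp6ap1, Atp6v1h, Atp6v0d1, Scarb2, Npc1, Sgsh and Galns, and since the control libraries are shared this is no independent repeat. Neu1 was 1.88-fold control cells in 3D-EV cells, 1.76-fold in 2D-EV cells and 1.79-fold in TGF-beta1 cells. Ctsb was 1.25-fold control cells in 3D-EV cells, 1.17-fold in 2D-EV cells and 1.18-fold in TGF-beta1 cells, and Npc2 was 1.33-fold, 1.24-fold and 1.23-fold in the same order. Gla was 1.30-fold, 1.26-fold and 1.24-fold control cells in that order, Atp6ap1 1.22-fold, 1.20-fold and 1.16-fold, and Ctsl 1.20-fold, 1.14-fold and 1.09-fold. Tfe3 passed with TGF-beta1 alone, and its log2 fold changes over control cells were 0.15 in 3D-EV cells and 0.15 in 2D-EV cells, beside 0.17 in TGF-beta1 cells. A further 7 genes passed over control cells with EVs and not with TGF-beta1 alone: Lamp1 and Laptm4a with both preparations, and Atp6v1a, Grn, Lamp2, Pla2g15 and Ppt1 with 3D-EVs. Between EV-treated and TGF-beta1 cells none of the 7 passed. Several of these calls hung on single libraries. With 3D-EVs, Lamp2 no longer passed without any of control replicates 1 and 2 and 3D-EV replicates 1, 2 and 3 (adjusted p = 0.0544 to 0.145), Atp6v1a without control replicate 1 or 2 or 3D-EV replicate 1 or 3 (0.0517 to 0.0602), Ppt1 without control replicate 2 or 3 or 3D-EV replicate 1 or 3 (0.0531 to 0.0793), Laptm4a without 3D-EV replicate 3 (0.0604), and Galns without control replicate 2 (0.0551) or 3D-EV replicate 3 (0.0736). With 2D-EVs, Laptm4a no longer passed without any of the control libraries or 2D-EV replicate 1 or 3 (0.0764 to 0.163), Npc1 without control replicate 1 or 2 or 2D-EV replicate 2 (0.0505 to 0.0619), and Sgsh without control replicate 1 (0.0586). With library totals, Lamp2, Atp6v1a, Laptm4a, Pla2g15 and Ppt1 no longer passed with 3D-EVs (0.0657 to 0.39), nor Laptm4a and Npc1 with 2D-EVs (0.359 and 0.0633). Laptm4a with 2D-EVs was also lost without the filter on low counts (0.09) and with only the 2D-EV and control libraries fitted (0.149). The other 22 genes tested passed in none of the 3 comparisons.

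Among the other pathway genes, 14 of 21 acid hydrolases rose and 1 fell (Ctso) in 3D-EV cells over control cells, and 10 rose and 0 fell in 2D-EV cells, beside the 12.2% and 10.5% of all genes that rose. The numbers that rose were 8 without control replicate 2 or 3D-EV replicate 3 in 3D-EV cells, and 5 or 6 without control replicate 2, 2D-EV replicate 1 or 2D-EV replicate 2 in 2D-EV cells. Of the further pump genes 8 of 13 rose in each EV group and 0 fell. Of the other membrane proteins and transporters, 9 of 22 rose in 3D-EV cells (5 without control replicate 3) and 7 in 2D-EV cells (4 without control replicate 3 or 2D-EV replicate 2), with Ostm1 at 1.22-fold and 1.17-fold, and 0 fell. Of the 15 genes of enzyme sorting and maturation, 4 rose and 1 fell (Cln6) in either EV group, and in 2D-EV cells 2 rose without control replicate 2 or 2D-EV replicate 2. Of the 18 genes of the TFEB list, 5 rose in 3D-EV cells (2 without control replicate 2, 3 without 3D-EV replicate 2) and 4 in 2D-EV cells, with Lamtor1 at 1.20-fold and 1.21-fold, and 0 fell. Of 31 autophagy genes, 9 rose in 3D-EV cells and 8 in 2D-EV cells (4 or 5 without control replicate 2, control replicate 3 or 2D-EV replicate 2), and 0 fell. With library totals 8 acid hydrolases rose and 1 fell in 3D-EV cells, and 5 rose and 1 fell in 2D-EV cells. On that scale 2 genes of the TFEB list rose and 1 fell in 3D-EV cells, 6 autophagy genes rose and 2 fell in 3D-EV cells, and 5 rose and 2 fell in 2D-EV cells, while the further pump genes again had 8 that rose in each. There, 5 of the other membrane proteins rose in 3D-EV cells, and of the sorting and maturation genes 2 rose and 1 fell in 2D-EV cells, as also when only the 2D-EV and control libraries were fitted. The shares of all genes that rose or fell in these settings are not given. No gene of the 6 pathway lists passed when 3D-EV or 2D-EV cells were compared with TGF-beta1 cells.

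The lysosomal genes shifted together between libraries of 1 group. The 46 genes summed to 19622, 19386 and 20416 CPM in 3D-EV cells, 19640, 19382 and 18044 CPM in 2D-EV cells, 18127, 18791 and 18843 CPM in TGF-beta1 cells, and 17541, 16766 and 18028 CPM in control cells, or 1.73% to 2.01% of all counts. In TMM-scaled CPM the 3D-EV sums were all above the TGF-beta1 sums, which were all above the control sums by a narrow margin. The 2D-EV sums ran from below to above the TGF-beta1 sums. As shares of all counts, without TMM, TGF-beta1 cells (1.792%, 1.858% and 1.869%) overlapped with control cells (1.795%, 1.727% and 1.849%). The 3D-EV shares (1.938%, 1.912% and 2.007%) were still all above those of TGF-beta1 cells. Within its group, 2D-EV replicate 3 was the lowest library in 36 of the 42 genes, TGF-beta1 replicate 1 in 31, control replicate 2 in 31 and 3D-EV replicate 2 in 24, while 3D-EV replicate 3 was the highest in 32. Over all genes a library was the lowest of its group in 30.9% to 35.3% of them. Without 2D-EV replicate 3, 18 lysosomal genes rose in 2D-EV cells over control cells. Counts of genes here are thus not counts of independent events.

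A pair of genes varied within groups far beyond the usual spread. Asah1, the acid ceramidase, had 286, 156.5 and 290.4 CPM in 3D-EV cells, 282, 272 and 277 CPM in 2D-EV cells, 262, 152 and 262 CPM in TGF-beta1 cells, and 256.5, 135.5 and 253 CPM in control cells. Replicate 2 was low in all groups but 2D-EV, and no library lay in between. The coefficient of variation within groups was 26.4%, beside a median of 3.07% for genes within 2-fold of its level. Mcoln1 had 43.8, 24.9 and 45.5 CPM in 3D-EV cells, 44.7, 29.5 and 48.5 CPM in 2D-EV cells, 40.4, 21.5 and 28.4 CPM in TGF-beta1 cells, and 25.6, 38.5 and 33.95 CPM in control cells. It varied by 27.0% within groups, beside 5.15% for genes of like level.

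Pnpla6, a phospholipase gene 2 places from Mcoln1 on the same strand in RefSeq gene order, was high where Mcoln1 was low. Over the 12 libraries Mcoln1 ranged from 21.5 to 48.5 CPM (coefficient of variation 26.2%), Pnpla6 from 73.0 to 104 CPM (13.2%) and their sum from 113.5 to 133 CPM (4.88%). With the counts of the pair summed, an analysis chosen after the values were seen, the log2 fold change was 0.11 in TGF-beta1 cells over control cells (adjusted p = 0.0638 by edgeR). Over control cells it was 0.15 in 2D-EV cells (adjusted p = 0.0131) and 0.11 in 3D-EV cells (adjusted p = 0.0618). Over TGF-beta1 cells it was 0.04 with 2D-EVs (adjusted p = 0.874) and -4.6e-07 with 3D-EVs, and neither passed. Whether reads were divided between these neighbours was not tested, and the value of Mcoln1 alone is given as uncertain.

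**Figure D5:**
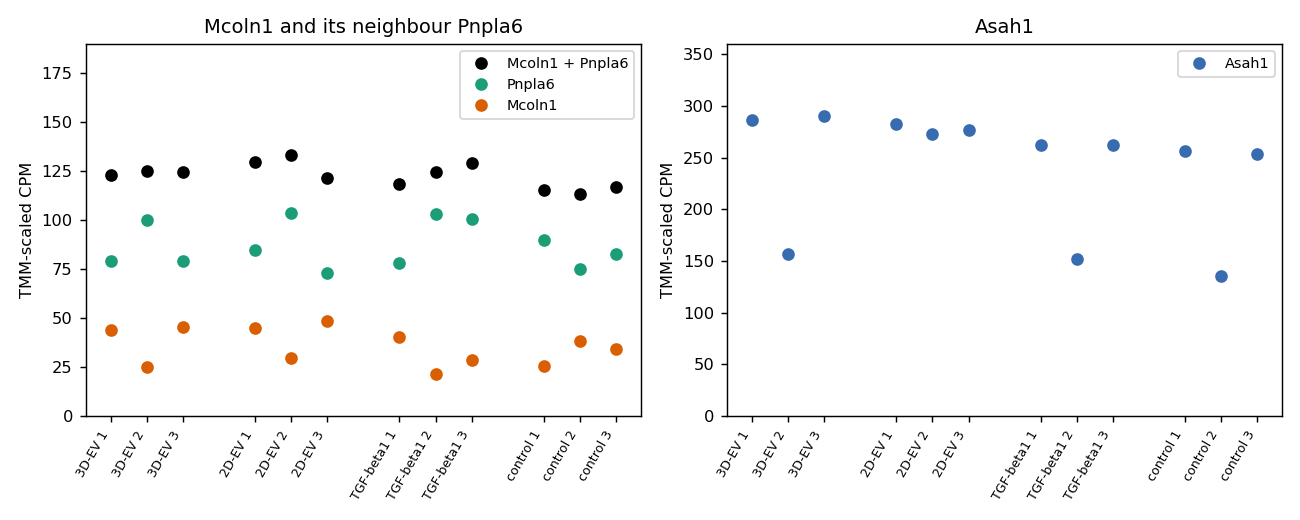
TMM-scaled CPM (y axes, from 0) in each of the 12 libraries of Mcoln1, its neighbour Pnpla6 and their sum (left), and of Asah1 (right), from left to right in 3D-EV, 2D-EV, TGF-beta1 and control cells. The sum stays between 113.5 and 133 CPM while Pnpla6 is high where Mcoln1 is low, and Asah1 lies near 150 CPM or above 250 CPM with no library between.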

How the data were processed

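Counts per gene were deposited for 12 libraries of NRK-52E cells in 4 groups of 3, as whole numbers that the authors had not normalized. The submitters' processing notes name fastp, HISAT2, StringTie, DESeq2 and rat build mRatBN7.2, without versions or strand handling. Of 24660 genes, 5394 were at 0 throughout. The value 1 filled 1514 cells of the table and the value 2 filled 5687, so very small counts are not plain numbers of reads.

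The counts were analysed with edgeR 4.0.16 in R 4.3.3: filterByExpr with a minimum count of 10 (14184 genes), TMM factors (0.983 to 1.03), 1 fit of group means over the 12 libraries, and quasi-likelihood F-tests of 6 contrasts, with Benjamini-Hochberg adjustment over all genes tested and a threshold of 0.05. CPM are TMM-scaled, and intervals of log2 fold changes are at 95%. Alternatives were DESeq2 1.42.0, limma-voom (limma 3.58.1), other scalings and filters, fits of only the groups compared, a replicate block and leaving out each library. The fit was tested on simulated data. Pairs of libraries of a group differed by 6.82 to 10.9 times the counting variance. Residuals of 18 pairs of same-numbered libraries correlated by -0.067 to 0.0448, so the numbers were not used as pairs.

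The 46 genes, the lists and the tests were chosen with earlier results of these data known. Values in every library are given for up to 8 genes per comparison that passed, ranked by p, and for Ctsb, Ctsd, Ctsl, Neu1, Lamp1, Lamp2, Mcoln1, Tfeb and Tfe3. From each pathway list up to 2 genes that rose and 2 that fell are described. For the list of enzyme sorting and maturation, 1 gene that counts among its members is not reported here. Slc44a4, Pnpla6, Asah1, Lipa and the library sums were taken up after their values were seen. Promoter windows are from RefSeq on build GRCr8, matched by symbol.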

Additional observations from a re-analysis of the deposited data

How the results depend on the processing

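Of the 3516 values of single lysosomal genes recomputed under the alternatives, no called value changed sign, 63 lost a call and 26 gained one. With TGF-beta1 over control cells, the number of lysosomal genes called was 8 to 13 when a library was left out (8 without control replicate 2 or TGF-beta1 replicate 3), beside 2419 to 2555 of all genes. It was 11 to 14 in the other settings, and 7 genes rose in all 15. Over control cells the number of lysosomal genes called was 14 to 20 with 3D-EVs and 11 to 18 with 2D-EVs when a library was left out, and 13 and 11 genes rose in every setting. The numbers over all genes were 2408 to 2679 and 2006 to 2311 when a library was left out. With the replicate block the numbers were 18 with 3D-EVs, 14 with 2D-EVs and 11 with TGF-beta1, and 0 in each comparison of EV-treated cells with TGF-beta1 cells or with each other. The block moved Lamp2 with 3D-EVs (adjusted p = 0.0518 by edgeR), Laptm4a with 2D-EVs (0.0856), and Tfe3 and Atp6v0d1 with TGF-beta1 (0.0539 and 0.065) out of the calls, and brought in Asah1 with 2D-EVs (log2 fold change 0.44, adjusted p = 0.0484). In the check of pairing, 5 of the 12 libraries were closest to one of the same number. No lysosomal gene passed between EV-treated and TGF-beta1 cells under any setting, although the number over all genes depended on the tool: 13 by DESeq2 and 0 by edgeR with 3D-EVs, 56 and 4 with 2D-EVs, and 21 and 1 for 3D-EV against 2D-EV cells. Without a filter on low counts edgeR called 14 with 2D-EVs and 8 for 3D-EV against 2D-EV cells. The causes were not tested. Depth limits what can be said of Ctsk, Ctss, Manba and the genes not tested, and n = 3 limits the small differences with EVs.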
